A study of Sus scrofa with 6 samples.

Results

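Smooth muscle cells, pericytes and myofibroblasts are the contractile and supporting cells of the lung mesenchyme, and 10 genes that mark them or signal between them were followed here in pig lung. They are the contractile genes ACTA2, MYH11, TAGLN, CNN1 and DES, the coactivator MYOCD, the ligands PDGFA and PDGFB and the receptors PDGFRA and PDGFRB. The genes were chosen by name, and 7 of the 10 had a row among the 14579 mRNAs of the FPKM table (fragments per kilobase of transcript, scaled to the mapped reads of the library, a level per length). No row was matched by symbol to MYOCD, PDGFB or PDGFRA, and these 3 genes were not analysed here.

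The study compared lungs before and after birth. The prenatal group held 3 female piglets taken on the last day before birth, and the neonatal group held 3 female piglets taken 2 days after birth. All 6 were hybrids of a Tibetan sire and a Meishan dam, they came from different sows of like weight under the same rearing, and 1 library was made from the lung of each. The labels name no treatment or altered allele, and the pregnancies ended by caesarean or by parturition. The groups therefore differ by birth, age, sow and possibly delivery together, and these cannot be told apart. The libraries are named Prenatal1 to Prenatal3 and Neonatal1 to Neonatal3.

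Around the airways and vessels, smooth muscle cells contract by sliding smooth muscle myosin along actin. Serum response factor (SRF) and its partner myocardin switch on much of this contractile program. Pericytes wrap the capillaries and carry PDGFRB, the receptor through which endothelial PDGFB recruits them. Myofibroblasts of the growing alveolar septa arise from cells that carry PDGFRA, respond to epithelial PDGFA, express ACTA2 and lay down elastin.

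The tissue was whole lung, and SFTPC, a surfactant protein made in alveolar type II cells, lay between 3171 and 8790 FPKM in the 6 libraries. A bulk library cannot tell fewer cells of a type from less RNA per cell. Summed FPKM ranged from 339491 to 777982 between libraries, and between 3.02% and 5.68% of mRNAs were listed at 0. Of the lncRNAs, between 27.2% and 31.3% were listed at 0 in Prenatal3, Neonatal2 and Neonatal3, and between 9.29% and 13.2% in the other libraries. The tables hold no read counts, so the error came from the spread between the 3 piglets of a group. In the test, limma drew this spread toward its trend with level over all mRNAs. Over the whole table the median log2(FC) stood at 0.13 and moved to -0.0090 after median-of-ratios scaling of the libraries, so differences near 0.13 are no larger than this shift. Here log2(FC) is the neonatal minus the prenatal mean of log2(FPKM + 1), which understates the change of genes with low FPKM.

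ACTA2, TAGLN and CNN1 were higher in the neonatal group, by 3.31, 3.45 and 4.51 times in mean FPKM. The row named MYH11, whose identity is uncertain, was 1.74 times as high in the neonatal group but missed the threshold, and DES, PDGFA and PDGFRB missed it too. In limma with Benjamini-Hochberg adjustment over all mRNAs, 3 of the 7 measured genes were past an adjusted p of 0.05 in the higher direction and 0 in the lower. At an unadjusted p under 0.05 these counts were 4 and 0, and 24.2% of all mRNAs were under it in either direction. Over all mRNAs, 5.41% were past the threshold in the higher direction and 1.45% in the lower, 6.87% in all. Of the 1001 calls, 78.8% were higher, against 66.0% of 985 after median-of-ratios scaling and 57.9% of 1155 after quantile normalization. In 4 of the 7 genes every neonatal library lay above every prenatal library, against 20.9% of all mRNAs (30.5% in either direction). The median log2(FC) of the 7 genes was 0.74, and it was 0.57 after median-of-ratios scaling and 0.48 after quantile normalization.

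**Figure D1:**
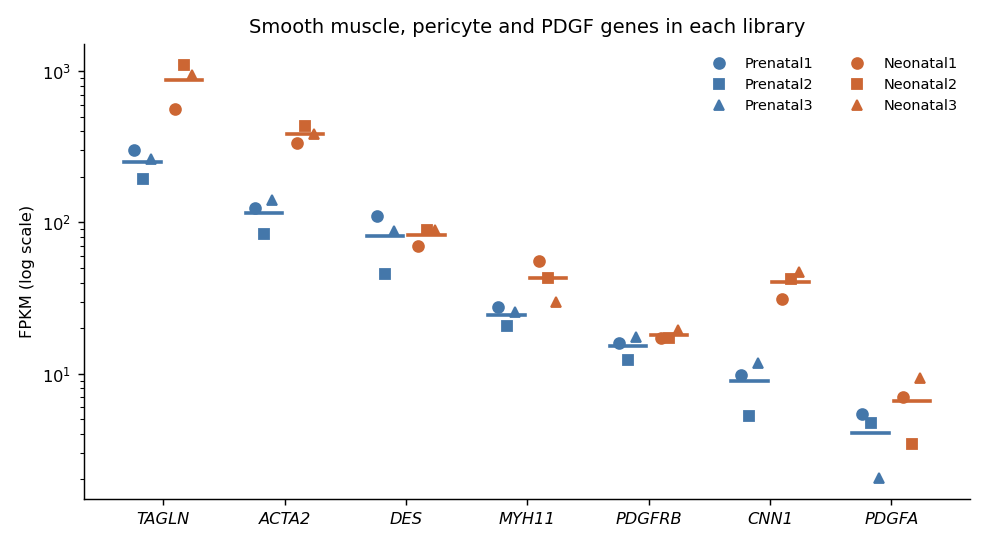
FPKM on a log axis for the 7 measured genes, ordered by their prenatal level, with 1 point for each of the 6 libraries and a bar at the mean of the 3 libraries of a group. For ACTA2, TAGLN, CNN1 and MYH11 the 3 neonatal points all sit above the 3 prenatal ones, and for DES, PDGFRB and PDGFA the groups overlap.

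ACTA2 (ENSSSCG00000010447) encodes smooth muscle alpha actin, the thin filament of the contractile cells and the usual mark of a myofibroblast. Its level was 124, 83.3 and 140 FPKM in Prenatal1, Prenatal2 and Prenatal3 and 333, 434 and 383 FPKM in Neonatal1, Neonatal2 and Neonatal3. The lowest neonatal library stood well above the highest prenatal one. The means were 116 ± 29.3 and 383 ± 50.2 FPKM (SD, n = 3), with a log2(FC) of 1.74 (SE 0.27, 95% interval 1.11 to 2.38) and an adjusted p of 0.0138. The call was kept without Prenatal3 (adjusted p of 0.0396) or Neonatal1 (0.0303), and the adjusted p was 0.0596 without Prenatal1, 0.0606 without Prenatal2, 0.0682 without Neonatal2 and 0.0591 without Neonatal3. The log2(FC) stayed between 1.53 and 1.90 whichever library was left out.

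TAGLN (ENSSSCG00000015073) encodes transgelin, or SM22 alpha, an actin binding protein of smooth muscle and an early mark of the lineage. It had the highest level of the 7 genes in every library, at 301, 193 and 263 FPKM before birth and 559, 1103 and 946 FPKM after it. Neonatal1 was the lowest of the neonatal libraries and still above all prenatal ones. The means were 252 ± 54.5 and 869 ± 280 FPKM (SD, n = 3), the log2(FC) was 1.75 (SE 0.36, 95% interval 0.92 to 2.58) and the adjusted p was 0.0317. This call was the least firm of the 3. The adjusted p was 0.0906, 0.137 and 0.10 without Prenatal1, Prenatal2 and Prenatal3 in turn, and 0.114 and 0.107 without Neonatal2 and Neonatal3. It was 0.0276 without Neonatal1, and 0.0530 (log2(FC) of 1.58) with a term for the 3 libraries that had the most lncRNAs at 0.

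CNN1 (ENSSSCG00000013614) encodes calponin, an inhibitor of the actomyosin ATPase that is largely restricted to differentiated smooth muscle. It had 9.81, 5.27 and 11.8 FPKM in the prenatal libraries and 31.4, 42.5 and 47.3 FPKM in the neonatal ones. The groups were far apart relative to the spread within each. Its log2(FC) of 2.10 (SE 0.30, 95% interval 1.40 to 2.80) was the largest of the 7 genes, with an adjusted p of 0.0102 and means of 8.95 ± 3.33 and 40.4 ± 8.18 FPKM (SD, n = 3). It was past the threshold under each of the 8 other settings that kept all libraries, with a log2(FC) between 1.86 and 2.22. The adjusted p was 0.0611 without Neonatal2 and 0.0604 without Neonatal3.

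MYH11 encodes the smooth muscle myosin heavy chain, the motor of the thick filament and the most selective marker of mature smooth muscle. The row that carries this symbol (ENSSSCG00000000146) is of uncertain identity. Its number follows directly on that of MYH9, the non-muscle myosin heavy chain, and 10 of the 10 named identifiers within 10 of it lie on the chromosome of MYH9 in the Sscrofa11.1 annotation, with 0 on that of MYH11. The ratio of this row to MYH9 was 0.390, 0.311 and 0.383 before birth and 0.400, 0.362 and 0.397 after it. Different genes of like log2(FC) can give such ratios, so they do not bear on the identity of the row.

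The row had 27.5, 20.6 and 25.4 FPKM in the prenatal libraries and 55.3, 42.9 and 29.7 FPKM in the neonatal ones. Neonatal3 was only a little above the highest prenatal library. The log2(FC) was 0.74 (SE 0.26, 95% interval 0.14 to 1.34), with an unadjusted p of 0.0219 and an adjusted p of 0.135. For MYH9 itself the log2(FC) was 0.65 with an adjusted p of 0.177. Without this row, 3 of 6 members were past the threshold, 3 lay above without overlap and the median log2(FC) was 1.16 in place of 0.74.

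DES (ENSSSCG00000020785) encodes desmin, the intermediate filament of muscle cells, which pericytes also contain. It had 110, 45.4 and 87.5 FPKM before birth and 70.0, 89.6 and 89.6 FPKM after it. The neonatal libraries lay within the prenatal range. The means were 81.0 ± 32.8 and 83.1 ± 11.3 FPKM (SD, n = 3), and the log2(FC) of 0.12 had a 95% interval from -0.66 to 0.90 and an adjusted p of 0.855. The sign was not stable, with -0.057 after median-of-ratios scaling, -0.23 after quantile normalization and -0.25 without Prenatal2. The interval of DES lies below the log2(FC) of ACTA2, TAGLN and CNN1.

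Desmin is also made in heart and skeletal muscle, and 8 of 26 genes of a list for these tissues had a row. Their summed level was 10.7 to 13.2 FPKM before birth and 9.29 to 12.5 FPKM after it, and 3 of the 8 were at 0 in at least 1 library. TNNT2, cardiac troponin T, had 1.99, 1.33 and 1.86 FPKM before birth and 0.0592, 0.126 and 0.0400 FPKM after it (log2(FC) of -1.34, adjusted p of 0.0125). MYL4, an atrial and embryonic myosin light chain, was listed at 0 in Prenatal1 and Prenatal3, had 0.173 FPKM in Prenatal2, and had 1.36, 2.95 and 2.34 FPKM after birth. Its adjusted p was 0.0141, and it exceeded 0.05 when any library other than Neonatal1 was left out (up to 0.0650). TNNI1, the slow skeletal troponin I, had a log2(FC) of 0.82 at an adjusted p of 0.189. All of these levels were small beside those of DES.

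PDGFRB (ENSSSCG00000022741) encodes PDGF receptor beta, which marks pericytes and vascular smooth muscle. It had 16.0, 12.3 and 17.4 FPKM in the prenatal libraries and 17.2, 17.2 and 19.3 FPKM in the neonatal ones. The groups overlapped at the level of Prenatal3. The means of 15.2 ± 2.64 and 17.9 ± 1.24 FPKM (SD, n = 3) gave a log2(FC) of 0.23 with a 95% interval from -0.21 to 0.67 and an adjusted p of 0.485. After median-of-ratios scaling the log2(FC) was 0.06.

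PDGFA (ENSSSCG00000007541) encodes the PDGF A chain, the epithelial ligand of PDGFRA on which septal myofibroblasts depend. It had the lowest level of the 7 genes in every library, with 5.45, 4.72 and 2.04 FPKM before birth and 7.06, 3.41 and 9.31 FPKM after it. Neonatal2 fell inside the prenatal range. The means were 4.07 ± 1.80 and 6.59 ± 2.98 FPKM (SD, n = 3), the log2(FC) was 0.57 with a 95% interval from -0.36 to 1.50, and the adjusted p was 0.420.

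The order of the levels was TAGLN, ACTA2, DES, MYH11, PDGFRB, CNN1 and PDGFA in each of the 3 prenatal libraries. In the neonatal libraries the first 3 and the last were the same genes, and CNN1 stood above PDGFRB in all 3 and above MYH11 in Neonatal3. Before birth, DES and ACTA2 were neighbours whose ranges overlapped, and after birth the lowest level of ACTA2 (333 FPKM) was far above the highest of DES (89.6 FPKM). The 7 genes took 0.139%, 0.107% and 0.116% of the summed FPKM in the prenatal libraries and 0.218%, 0.287% and 0.196% in the neonatal ones. The groups did not overlap in this share, which was 0.121% ± 0.0166 and 0.234% ± 0.0474 (SD, n = 3). Most of it, and of its difference, lay in ACTA2 and TAGLN, which together took a mean of 0.0889% before birth and 0.202% after it.

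Within the prenatal group, Prenatal2 was the lowest library for 6 of the 7 genes, all but PDGFA, and it remained so after median-of-ratios scaling. It was also the lowest prenatal library for 40.0% of all mRNAs, and for 32.0% after scaling. Leaving it out took the log2(FC) of ACTA2 to 1.53, of TAGLN to 1.57 and of CNN1 to 1.80.

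Ratios between genes of 1 library do not depend on the scaling between libraries, and they are given as descriptions without a test. ACTA2 was 1.13, 1.83 and 1.60 times the level of DES in the prenatal libraries and 4.77, 4.84 and 4.28 times in the neonatal ones. For CNN1 to DES the ratio was 0.0892, 0.116 and 0.135 before birth and 0.448, 0.474 and 0.528 after it. For TAGLN to DES it was 2.73, 4.26 and 3.01 before birth and 7.99, 12.3 and 10.6 after it. All 3 ratios were higher in every neonatal library, with differences in mean log2 ratio of 1.63, 2.11 and 1.63 in this order. DES, the member with the smallest log2(FC), was taken as the denominator after its values were seen. The ratios to it therefore largely repeat the differences of the 3 genes themselves. Ratios of TAGLN and CNN1 to ACTB were not formed.

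ACTA2 also stood higher relative to PDGFRB, at 7.74, 6.78 and 8.06 times before birth and 19.4, 25.2 and 19.8 times after it. TAGLN to ACTA2 differed by -0.0014 in mean log2 ratio, and the groups overlapped. CNN1 to ACTA2 was higher by 0.48 on the log2 scale, without overlap. The ratios of PDGFRA to PDGFRB and of PDGFA to PDGFB could not be formed here.

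**Figure D2:**
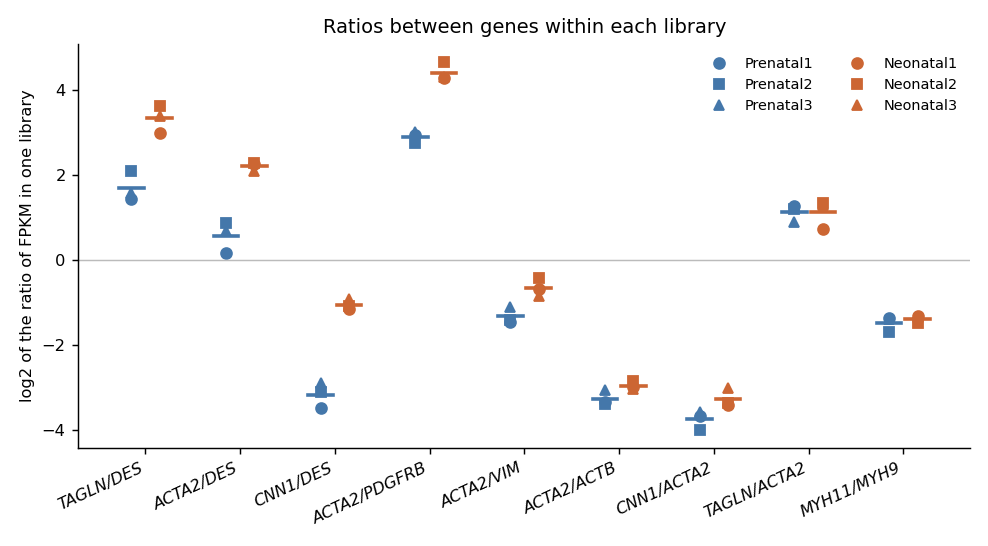
Log2 of the ratio of FPKM between the named genes within each of the 6 libraries, with a bar at the mean of each group. The ratios of TAGLN, ACTA2 and CNN1 to DES and of ACTA2 to PDGFRB separate the groups by more than 1.5 log2 units, those of ACTA2 to VIM, ACTA2 to ACTB and CNN1 to ACTA2 by 0.67, 0.30 and 0.48, and those of TAGLN to ACTA2 and MYH11 to MYH9 overlap.

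Cytoskeletal genes that are not particular to smooth muscle were also higher in the neonatal libraries, short of the threshold. ACTB, cytoplasmic beta actin, had a log2(FC) of 1.45 (adjusted p of 0.0758), ACTG1, cytoplasmic gamma actin, 0.92 (adjusted p of 0.108), and VIM, the intermediate filament of mesenchymal cells, 1.08 (adjusted p of 0.0672). The 3 had no overlap between the groups. In limma without a variance trend they were past the threshold, at an adjusted p of 0.0119, 0.0278 and 0.0371 in this order. With MYH9 included, the median log2(FC) of these reference genes was 1.00, above the 0.74 of the 7 members. Against ACTB and VIM the difference of ACTA2 was smaller. Its log2 ratio to ACTB was higher by 0.30 and its log2 ratio to VIM by 0.67, without overlap between the groups in either. ACTA2 made up 6.19%, 5.66% and 7.41% of the FPKM of the 5 actin rows before birth and 8.09%, 9.29% and 8.04% after it, and ACTB made up a mean of 60.9% and 65.4% of that sum.

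Calponin and transgelin each have a relative outside smooth muscle. CNN1 made up 7.56%, 6.62% and 11.0% of the FPKM of CNN1 and CNN3 before birth and 23.3%, 23.4% and 29.2% after it, with no overlap. TAGLN made up a mean of 39.9% of TAGLN and TAGLN2 before birth and 45.9% after it, and here the groups overlapped. TAGLN2, found in many cell types, had a log2(FC) of 1.39 at an adjusted p of 0.0767.

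Of a wider list of 36 genes of the contractile apparatus, 20 had a row. ACTG2, the gamma actin of enteric and other visceral smooth muscle, was past the threshold in the higher direction, and 0 genes were past it in the lower. For all mRNAs these shares were 5.41% and 1.45%. At an unadjusted p under 0.05, 7 were higher and 2 lower, beside 24.2% of all mRNAs in either direction. The median log2(FC) was 0.31, and it was 0.14 after median-of-ratios scaling. ACTG2 had 32.1, 22.3 and 18.4 FPKM before birth and 115, 103 and 163 FPKM after it, with a log2(FC) of 2.35 (SE 0.27) at an adjusted p of 0.0054. It was past the threshold in every alternative run. Its coding sequence is close to that of ACTA2, so reads can be shared between the rows, and within libraries the log2 ratio of ACTG2 to ACTA2 overlapped between the groups.

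Apart from ACTG2, the list went both ways and its values are given without a call. PDLIM3, a Z-disc and dense body adaptor, had a log2(FC) of 1.01 (adjusted p of 0.0857). TPM1, an alpha tropomyosin, had 0.94 (adjusted p of 0.0892), CSRP1, a LIM protein of smooth muscle, 0.76 (adjusted p of 0.0716), and MYLK, the myosin light chain kinase that starts contraction, 0.56 (adjusted p of 0.121). In the other direction lay the adhesion and adaptor genes TNS1 at -0.55 (adjusted p of 0.145) and ITGA8 at -0.40 (adjusted p of 0.222). In all 6 of these genes the groups did not overlap. Over the 20 genes, 7 lay above and 3 below without overlap, against 20.9% and 9.64% of all mRNAs.

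**Figure D3:**
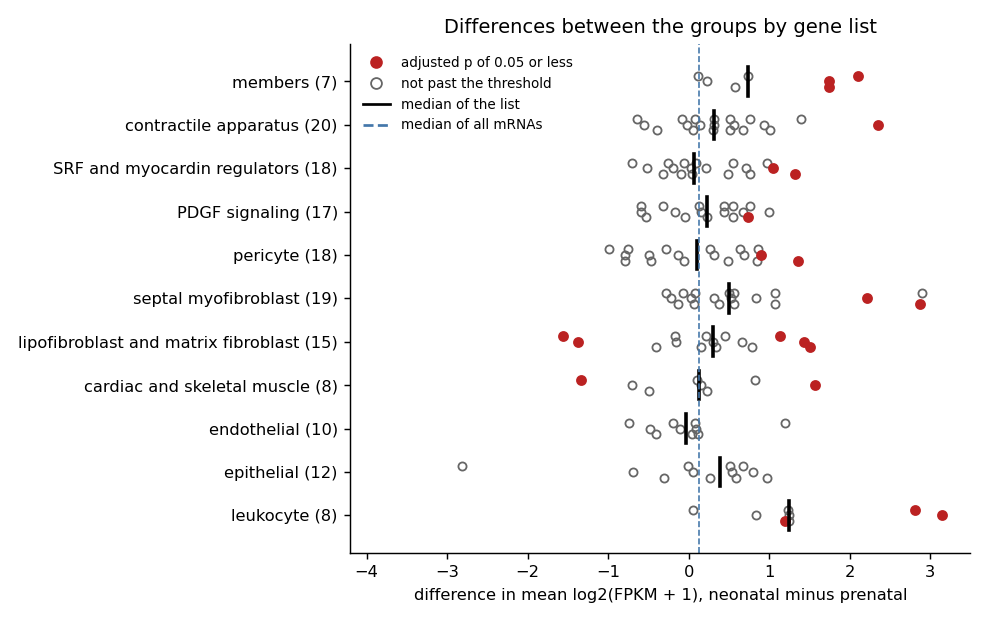
Difference in mean log2(FPKM + 1) between the groups for each measured gene of the 7 members and of 10 lists, with the number of measured genes in parentheses, filled points at an adjusted p of 0.05 or less, a black bar at the median of each list and a dashed line at the median of all mRNAs (0.13). The members have a median of 0.74, and the 6 other mesenchymal lists have medians from 0.06 to 0.50 with genes on both sides of the dashed line. The leukocyte list has the highest median, 1.24.

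MYOCD itself was not analysed, but SRF, the transcription factor it works through, was higher after birth. SRF had 5.62, 5.33 and 5.20 FPKM in the prenatal libraries and 10.8, 13.5 and 12.3 FPKM in the neonatal ones. The prenatal values were close together and well below the neonatal ones, with a log2(FC) of 1.04 (SE 0.17) at an adjusted p of 0.0157. FHL1, a LIM protein abundant in muscle, had 136, 123 and 163 FPKM before birth and 287, 360 and 423 FPKM after it (log2(FC) of 1.33, adjusted p of 0.0253). Both calls were lost when any library other than Neonatal1 was left out, with adjusted p up to 0.0799 for SRF and 0.111 for FHL1.

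These were the calls among 18 measured genes of a list of 26 SRF partners and regulators, with 0 called lower in limma. Of all mRNAs, 5.41% were called higher and 1.45% lower. At an unadjusted p under 0.05, 5 of the list were higher and 2 lower, beside 24.2% of all mRNAs in either direction. The median log2(FC) of the list was 0.06. FHL2, a LIM cofactor that SRF itself induces, had a log2(FC) of 0.98 at an adjusted p of 0.0533. JAG1, the endothelial Notch ligand that promotes smooth muscle differentiation, had 32.4, 23.0 and 21.4 FPKM before birth and 17.4, 16.9 and 17.4 FPKM after it. It lay lower without overlap, with a log2(FC) of -0.52 at an adjusted p of 0.168.

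Around the PDGF ligands and receptors, 17 of 19 listed genes had a row, and 1 was past the threshold, against 6.87% of all mRNAs. At an unadjusted p under 0.05, 6 were higher and 2 lower, beside 24.2% of all mRNAs in either direction. FURIN, the convertase that cleaves the PDGF A and B precursors, had 26.1, 23.2 and 25.3 FPKM before birth and 43.0, 44.2 and 38.8 FPKM after it. Its log2(FC) was 0.73 with an adjusted p of 0.0411, and the call was fragile. It was lost when any of the 6 libraries was left out (adjusted p between 0.0572 and 0.141), after median-of-ratios scaling (log2(FC) of 0.56, adjusted p of 0.0768) and after quantile normalization (0.45 and 0.157).

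The remaining PDGF ligands had higher mean levels after birth but missed the threshold. PDGFC, which signals mainly through PDGFRA, had 5.79, 4.0 and 5.40 FPKM before birth and 9.59, 7.69 and 10.5 FPKM after it, without overlap (log2(FC) of 0.76, adjusted p of 0.0737). PDGFD, a ligand of PDGFRB, had 28.7, 36.2 and 41.8 FPKM before birth and 40.6, 57.1 and 79.4 FPKM after it, with overlap (log2(FC) of 0.68, adjusted p of 0.191). PLAU, urokinase, which can activate PDGFD, had a log2(FC) of 0.99 at an adjusted p of 0.0924. Signaling proteins downstream of the receptors lay in both directions. Lower without overlap were the adaptors GAB1 at -0.59 (adjusted p of 0.0935) and NCK1 at -0.53 (adjusted p of 0.144) and PLCG1, a phospholipase, at -0.32 (adjusted p of 0.299). Higher without overlap were PTPN11 at 0.55 (adjusted p of 0.111) and SRC at 0.55 (adjusted p of 0.131). In the other listed signaling proteins the groups overlapped. GAB1 was past the threshold after median-of-ratios scaling (adjusted p of 0.0461) and quantile normalization (0.0411). Over the 17 genes 5 lay above and 3 below without overlap, against 20.9% and 9.64% of all mRNAs, and the median log2(FC) was 0.23.

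Pericyte genes did not share a direction. Of a list of 24, 18 had a row, 9 with a positive and 9 with a negative log2(FC), and the median was 0.10. The genes past the threshold were POSTN and ENPEP, both higher, with 0 lower, against 5.41% and 1.45% of all mRNAs. At an unadjusted p under 0.05, 6 were higher and 4 lower, beside 24.2% of all mRNAs in either direction. POSTN, the matrix protein periostin, which fibroblasts and myofibroblasts also secrete, had 18.9, 16.9 and 14.0 FPKM before birth and 34.7, 46.8 and 51.5 FPKM after it (log2(FC) of 1.36, adjusted p of 0.0140). ENPEP, the aminopeptidase that cleaves angiotensin II, had 12.0, 10.2 and 13.5 FPKM before birth and 21.6, 21.5 and 26.0 FPKM after it (log2(FC) of 0.90, adjusted p of 0.0311). The POSTN call was lost without any library other than Neonatal1 (adjusted p up to 0.0713), and the ENPEP call without any of the 6 (0.0501 to 0.121).

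Genes of the list that missed the threshold lay in both directions. Among those that lay higher, S1PR3, a receptor for sphingosine phosphate, had 1.70, 3.06 and 2.21 FPKM before birth and 5.19, 3.85 and 3.96 FPKM after it, without overlap (log2(FC) of 0.69, adjusted p of 0.117). CD248, endosialin, had a log2(FC) of 0.86 (adjusted p of 0.179) and overlapping groups. Other genes used to define pericytes lay lower. RGS5, a regulator of G protein signaling, had 3.98, 4.51 and 3.76 FPKM before birth and 1.19, 2.59 and 2.42 FPKM after it (log2(FC) of -0.76, adjusted p of 0.112). ANGPT1, the ligand by which mural cells signal to endothelial Tie2, had 31.9, 22.7 and 32.0 FPKM before birth and 9.53, 15.1 and 18.3 FPKM after it (log2(FC) of -0.99, adjusted p of 0.0743). In RGS5 and ANGPT1 the groups did not overlap. ANGPT1 was past the threshold after median-of-ratios scaling (adjusted p of 0.0277) and after quantile normalization (0.0160). LAMC3, a laminin chain, had 1.16, 0.863 and 0.886 FPKM before birth and 0.0703, 0.110 and 0.235 FPKM after it, a ratio of means of 0.143. Its log2(FC) was -0.79 at an adjusted p of 0.0584 and, at these low levels, -2.21 with a pseudocount of 0.1 (adjusted p of 0.0568). It was past the threshold with both scalings (0.0424 and 0.0405) and without a variance trend (0.0449). With either scaling, the number of pericyte genes past the threshold was 5 in place of 2.

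The subunits of the potassium channel that mural cells use to sense metabolism lay in opposite directions. ABCC9, the sulfonylurea receptor subunit, had 34.1, 29.0 and 26.6 FPKM before birth and 19.7, 20.6 and 22.2 FPKM after it. KCNJ8, the pore subunit, had 22.0, 12.1 and 19.2 FPKM before birth and 25.6, 30.1 and 41.7 FPKM after it. Neither pair of groups overlapped, and neither gene passed the test (log2(FC) of -0.50 and 0.85, adjusted p of 0.137 and 0.118). ABCC9 was past the threshold after median-of-ratios scaling (adjusted p of 0.0390) and quantile normalization (0.0284). The surface markers MCAM and CSPG4 had a log2(FC) of 0.63 and 0.27 (adjusted p of 0.189 and 0.483).

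**Figure D4:**
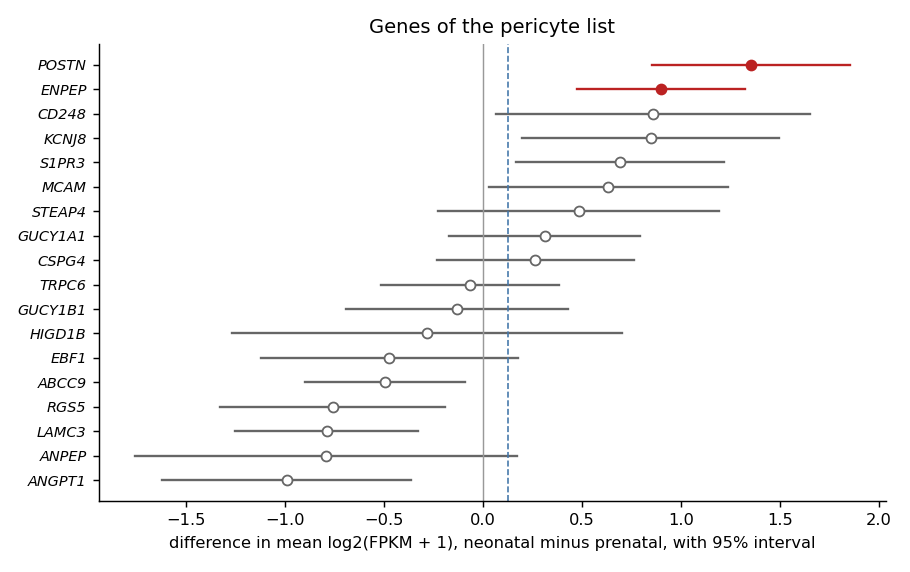
Difference in mean log2(FPKM + 1), neonatal minus prenatal, with its 95% interval from limma, for the 18 measured pericyte genes, filled where the adjusted p is 0.05 or less, with the dashed line at the median of all mRNAs (0.13). POSTN and ENPEP lie highest, ANGPT1 lowest at -0.99, and 9 genes lie on each side of 0.

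TNC and FGF18, genes of the septal myofibroblast, rose after birth by 8.02 and 9.70 times in mean FPKM. TNC, tenascin C, a matrix protein of growing septa, had 5.60, 5.49 and 9.83 FPKM before birth and 55.2, 53.6 and 58.9 FPKM after it (log2(FC) of 2.88, SE 0.23, adjusted p of 0.0018). FGF18, a growth factor of septal mesenchyme, had 0.590, 0.996 and 0.606 FPKM before birth and 5.41, 7.89 and 7.95 FPKM after it (log2(FC) of 2.22, SE 0.22, adjusted p of 0.0037). Both were past the threshold in every alternative run. They were the calls among 19 measured genes of 23, with 0 called lower, against 5.41% of all mRNAs called higher and 1.45% lower. At an unadjusted p under 0.05, 7 were higher and 0 lower, beside 24.2% of all mRNAs in either direction. Above without overlap lay 9, against 20.9% of all mRNAs, and the median log2(FC) was 0.50. Of the 19, 15 had a positive log2(FC) and 4 a negative one. HHIP, TGFB2 and EDNRB had 0.08, 0.07 and 0.03, and ENPP2, PTCH1, STC1 and CTHRC1 had -0.28, -0.22, -0.13 and -0.07. ITGAV, the integrin alpha V chain that activates latent TGF beta, had 30.2, 245 and 1954 FPKM in the neonatal libraries against 20.1, 46.3 and 34.9 FPKM in the prenatal ones, and this spread left an adjusted p of 0.224.

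Across the 6 libraries, the genes whose log2(FPKM + 1) followed that of ACTA2 most closely among 8678 mRNAs with a symbol and a mean of at least 1 FPKM were CDCA3 and FDPS (Pearson's r of 0.998 each), then MSANTD3, TOMM40L and COL5A2 (0.996 each). Over 6 libraries in 2 groups, such a value mostly reflects the difference between the groups, and it is given as a description. With the group means removed, r was 0.996 for COL5A2, a chain of type V collagen, 0.977 for CDCA3, 0.974 for FDPS, 0.970 for TOMM40L and 0.949 for MSANTD3. Of the members, CNN1 ranked 15 (r of 0.994), TAGLN 205 (0.971), MYH11 1999 (0.794), PDGFRB 2195 (0.771), DES 4154 (0.381) and PDGFA 4274 (0.344). Of the reference genes, ACTB ranked 18 (0.993), ACTG1 96 (0.981), VIM 203 (0.971) and MYH9 2467 (0.733). After the group means were removed, r to ACTA2 was 0.942 for CNN1, 0.875 for DES, 0.849 for PDGFRB, 0.772 for TAGLN, 0.163 for MYH11 and -0.56 for PDGFA.

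Genes of other cell types were measured in the same libraries. Of 12 leukocyte genes listed, 8 had a row, none of them at 0 in any library, and 3 were past the threshold, all higher: S100A8 and S100A9, the calprotectin chains of neutrophils and monocytes (log2(FC) of 2.81 and 3.15, adjusted p of 0.0025 and 0.0020), and LCP1, leukocyte plastin (1.20, 0.0334). Of all mRNAs, 5.41% were past the threshold in the higher direction. The median log2(FC) of the 8 was 1.24, above the 0.74 of the 7 members. An unadjusted p under 0.05 was reached by 7 in the higher direction and 0 in the lower, beside 24.2% of all mRNAs in either. The LCP1 call was lost without Prenatal2, Prenatal3, Neonatal2 or Neonatal3 (adjusted p up to 0.133). The summed level of the 8 was 190 to 449 FPKM before birth and 641 to 1209 FPKM after it. CD68, of macrophages, had a log2(FC) of 1.25 at an adjusted p of 0.0506. The groups overlapped for the macrophage genes MARCO (1.24, adjusted p of 0.188) and CSF1R (0.057, adjusted p of 0.920). The part of these cells in the levels of ACTA2, TAGLN, CNN1 and ACTB was not tested.

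Endothelial genes had 0 of 10 measured past the threshold in limma, against 6.87% of all mRNAs. An unadjusted p under 0.05 was reached by 3, beside 24.2% of all mRNAs. Their median log2(FC) was -0.029, with a summed level of 570 to 704 FPKM before birth and 730 to 995 FPKM after it. Without CLDN5 the sum was 372 to 451 FPKM before birth and 353 to 379 FPKM after it. CLDN5, a junction protein, had a log2(FC) of 1.20 (adjusted p of 0.0585), while EMCN and the ANGPT1 receptor TEK had -0.74 and -0.48 (adjusted p of 0.141 and 0.246). Epithelial genes had 0 of 12 past the threshold, against the same 6.87%, and 4 at an unadjusted p under 0.05, beside the same 24.2%. Their median was 0.39, with a summed level of 5336 to 6264 FPKM before birth and 6874 to 12366 FPKM after it. Within that list, SFTPC and SFTPA1 had a log2(FC) of 0.80 and 0.97 (adjusted p of 0.429 and 0.151) and SCGB1A1 of -2.82 (adjusted p of 0.265). Of 8 mesothelial genes, 2 had a row, MSLN and WT1 (-0.52 and -0.056, adjusted p of 0.317 and 0.927), and neither was called. The part of these cell types in the values of the members was not tested.

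**Figure D5:**
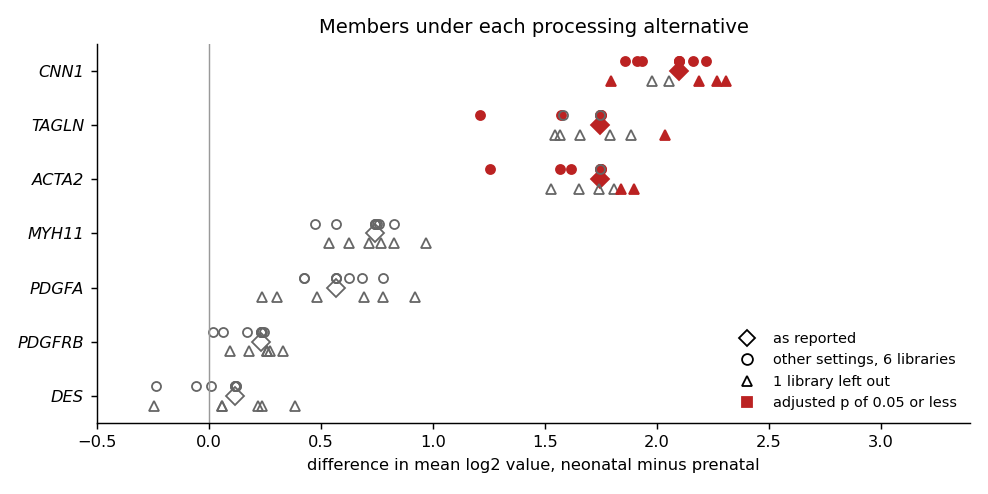
Difference in mean log2 value, neonatal minus prenatal, for the 7 measured genes as reported (diamonds), under 8 other settings with all 6 libraries (circles) and with 1 library left out (triangles), filled where the adjusted p is 0.05 or less. ACTA2, TAGLN and CNN1 keep a difference between 1.21 and 2.31 in every setting while some symbols are unfilled, and DES lies on both sides of 0.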

How the data were processed

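The authors extracted RNA with Trizol, made Ribo-Zero strand-specific paired-end libraries, mapped reads to Sscrofa10.2 with TopHat 2.1.0 and estimated levels with Cufflinks 2.2.1. The deposited values are FPKM, for mRNAs above 0.5 in at least 1 sample. All 14579 mRNAs met this filter. The mRNA rows carry Ensembl identifiers without coordinates. Symbols came from a gene name table for 9478 identifiers and from a supplementary gene table of the study for 329, and 4772 had none. All 12 value columns of the mRNA and lncRNA tables were matched to samples by name.

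Values were analysed as log2(FPKM + 1), with no further filter, in limma 3.58.1 (R 4.3.3) with a variance trend and the group as the only term, and Benjamini-Hochberg adjustment over all mRNAs. The fit was tested on simulated data. An adjusted p of 0.05 or less was the threshold. The authors' Cuffdiff could not be rerun on FPKM. Read depth per value is unknown, so no counting error is given. Descriptions and figures used Python 3.11.15, pandas 2.3.3 and matplotlib 3.10.9.

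The members and lists were chosen with earlier results of these data known. Named genes were the members, every list gene past the threshold (or the 3 with the largest log2(FC) where fewer than 3 passed), 4 reference genes and the 5 most like ACTA2. RGS5, ABCC9, LAMC3, KCNJ8, MCAM, CSPG4, PDGFD, TNS1, ITGA8, JAG1, CD68, TPM1, CSRP1, MYLK, S1PR3, CD248, GAB1, NCK1, PLCG1, CSF1R, MARCO, PTPN11, SRC, HHIP, TGFB2, EDNRB, ENPP2, PTCH1, STC1 and CTHRC1, the values without the MYH11 row or CLDN5, and the ratios to DES, PDGFRB, VIM and MYH9, were added after their values were seen. Alternatives were scaling by median-of-ratios factors, quantile normalization, pseudocounts of 0.5 and 0.1, a stricter filter (above 1 FPKM in 3 or more samples), a constant variance prior, blocking on the replicate number, a term for the 3 libraries with the most lncRNAs at 0, and each library left out in turn.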

Additional observations from a re-analysis of the deposited data

How the results depend on the processing

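The differences of ACTA2, TAGLN and CNN1 were positive in all 14 alternatives. With 1 library left out, the log2(FC) ranged from 1.53 to 1.90 for ACTA2, from 1.55 to 2.04 for TAGLN, from 1.80 to 2.31 for CNN1, from -0.25 to 0.38 for DES, from -0.22 to 0.22 for WT1 (0.07 without Neonatal2), and from -0.14 to 0.32 for CSF1R. DES reversed after median-of-ratios scaling (-0.057) and quantile normalization (-0.23), and WT1 with a pseudocount of 0.1 (0.039) and with the term for the 3 libraries rich in lncRNAs at 0 (0.0016). CSF1R reversed with both scalings (-0.085 and -0.071) and with that term (-0.091). That term left 587 mRNAs past the threshold, TAGLN short of it at 1.58, and 0 PDGF and 1 pericyte genes called. The cause was not tested for these changes.

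With 1 library left out, a setting with fewer samples by construction, between 196 (without Prenatal2) and 944 (without Neonatal1) mRNAs were past the threshold, against 1001 with all. Among the members the count was 0 to 3, with 0 without Neonatal2 or Neonatal3. The lists had 1 to 2 contractile, 0 to 2 SRF, 0 PDGF, 0 to 1 pericyte, 1 to 4 lipofibroblast and matrix fibroblast, 1 to 2 cardiac and skeletal muscle, 0 to 1 endothelial and 2 to 5 leukocyte genes past it. Without a variance trend, 2 contractile, 0 PDGF, 1 endothelial and 3 reference genes were called. Both scalings gave 5 pericyte genes, and quantile normalization and the stricter filter 1 endothelial gene each.

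The replicate numbers name different sows, so they do not pair the samples. Deviations of same-numbered libraries correlated at -0.041, -0.0043 and 0.00047, and no library correlated best with the one of its own number. With the replicate number as a block, 401 mRNAs and 1 member were called, ACTA2 (1.74) and TAGLN (1.75) were short of the threshold, and 0 SRF, 0 PDGF, 0 pericyte and 1 cardiac and skeletal muscle genes were called. The tables give no depth, so low values such as those of PDGFA carry an unknown counting error.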

Other observations

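Genes of the fibroblasts beside the smooth muscle went both ways. Of 20 lipofibroblast and matrix fibroblast genes, 15 had a row, and the median log2(FC) was 0.31. Past the threshold were 3 in the higher and 2 in the lower direction, against 5.41% and 1.45% of all mRNAs. PLIN2, the lipid droplet coat protein of lipofibroblasts, had 5.43, 3.19 and 4.28 FPKM before birth and 12.3, 12.7 and 14.3 FPKM after it (log2(FC) of 1.43, adjusted p of 0.0109). DPT, dermatopontin, had a log2(FC) of 1.14 (adjusted p of 0.0156) and THY1, a fibroblast surface protein, 1.51 (adjusted p of 0.0347). SCARA5, a ferritin receptor of adventitial fibroblasts, had 26.2, 19.3 and 22.1 FPKM before birth and 5.98, 8.79 and 6.29 FPKM after it (log2(FC) of -1.56, adjusted p of 0.0086). VEGFD, a lymphatic growth factor, had a log2(FC) of -1.38 (adjusted p of 0.0140). SCARA5 was past the threshold without any 1 library, and the others were not in each case, with adjusted p up to 0.0585 for PLIN2, 0.0764 for DPT, 0.127 for THY1 and 0.0680 for VEGFD.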
